A study of Homo sapiens with 23 samples.

Results

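The genes described here are 44 genes of cell adhesion and tight junctions: cadherins, catenins, EPCAM and MUC1, claudins, other tight junction genes, desmosome genes and nectins. Their chromatin loops were read from 2 lists made by HiChIP in T47D, an established human breast cancer cell line of luminal type. In HiChIP, DNA ends that lie close in the nucleus are ligated and an antibody, in this case to the progesterone receptor (PR), pulls down the products, so a listed loop reflects contact and pull-down together. A loop was assigned to a gene when either of its bins of 5 kb overlapped the hg38 gene body widened by 10 kb. By this rule the 44 genes, of 19970 protein-coding genes, held 32 of the 7075 loops of the library labelled T0 and 49 of the 9591 loops of the library labelled T30. Both libraries came from T47D cells grown without phenol red in charcoal-treated serum and then without serum. The title of the T30 library contains PR5020, and R5020, a synthetic progestin, is among the treatments that the labels describe. For these libraries the labels give no dose and no unit for T0 and T30. Each label stands for 1 library, so no difference below was checked against replicates, and intervals reflect counting error alone.

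Epithelial cells are held together by 3 kinds of junction. In adherens junctions, cadherins of neighbouring cells bind each other and are tied to actin by catenins, and nectins act beside them. In tight junctions, claudins and the occludin family seal the space between cells on scaffolds such as ZO proteins and cingulin, and in desmosomes, desmogleins and desmocollins are tied to keratin filaments by plakoglobin, plakophilins and desmoplakin. Luminal breast cells are known for E-cadherin, EPCAM and several claudins.

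The promoters of 5 genes are printed here because a loop ended in the bin that holds the start site of each. PKP1, CLDN4 and CLDN11 had such a loop and at least 4 loops in 1 library. CLDN3 and CLDN1 were added after their values were seen, since CLDN3 was joined to CLDN4 and CLDN1 had its start site bin at a loop in both libraries. Each window runs from 250 bases before to 50 after the start site, 5′ to 3′ along the gene (RefSeq, GRCh38.p14). Capitals mark matches, on either strand, to any of 8 motifs: the E-box CACCTG bound by Snail and ZEB repressors, the steroid receptor hexamer TGTTCT, the steroid receptor palindrome, the forkhead motif TGTTTAC, the GC box GGGCGG, the grainyhead motif AACCGGTT, the AP-2 motif GCCNNNGGC and the AP-1 motif TGANTCA. The palindrome was searched as TGTNC and its reverse complement, 3 bases apart. Overlapping matches run together, as at the end of the CLDN3 window.
PKP1 promoter, chr1:201283256-201283555, plus strand: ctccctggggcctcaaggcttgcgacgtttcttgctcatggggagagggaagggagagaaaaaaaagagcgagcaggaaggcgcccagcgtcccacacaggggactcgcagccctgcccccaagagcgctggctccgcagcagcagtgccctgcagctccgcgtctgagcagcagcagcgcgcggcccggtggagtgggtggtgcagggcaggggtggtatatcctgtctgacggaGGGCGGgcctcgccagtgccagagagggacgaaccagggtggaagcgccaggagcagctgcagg
CLDN4 promoter, chr7:73830746-73831045, plus strand: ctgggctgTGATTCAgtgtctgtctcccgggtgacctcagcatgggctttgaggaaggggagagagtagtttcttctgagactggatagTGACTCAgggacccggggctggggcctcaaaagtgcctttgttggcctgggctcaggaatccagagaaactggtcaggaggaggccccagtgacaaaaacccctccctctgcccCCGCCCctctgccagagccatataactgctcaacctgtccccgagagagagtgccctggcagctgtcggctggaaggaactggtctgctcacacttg
CLDN3 promoter, chr7:73770221-73770520, minus strand: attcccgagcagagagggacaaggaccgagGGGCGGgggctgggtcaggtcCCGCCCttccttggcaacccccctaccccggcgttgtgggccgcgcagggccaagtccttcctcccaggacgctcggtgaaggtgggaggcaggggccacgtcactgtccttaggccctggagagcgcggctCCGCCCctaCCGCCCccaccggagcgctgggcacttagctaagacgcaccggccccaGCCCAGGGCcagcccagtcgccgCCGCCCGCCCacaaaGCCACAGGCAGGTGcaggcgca
CLDN1 promoter, chr3:190322397-190322696, minus strand: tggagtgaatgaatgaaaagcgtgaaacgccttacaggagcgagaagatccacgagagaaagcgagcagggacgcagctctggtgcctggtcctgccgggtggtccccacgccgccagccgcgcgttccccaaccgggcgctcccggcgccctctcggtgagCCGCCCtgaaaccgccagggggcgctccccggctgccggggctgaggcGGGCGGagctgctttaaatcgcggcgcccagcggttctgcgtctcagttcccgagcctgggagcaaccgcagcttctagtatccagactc
CLDN11 promoter, chr3:170418618-170418917, plus strand: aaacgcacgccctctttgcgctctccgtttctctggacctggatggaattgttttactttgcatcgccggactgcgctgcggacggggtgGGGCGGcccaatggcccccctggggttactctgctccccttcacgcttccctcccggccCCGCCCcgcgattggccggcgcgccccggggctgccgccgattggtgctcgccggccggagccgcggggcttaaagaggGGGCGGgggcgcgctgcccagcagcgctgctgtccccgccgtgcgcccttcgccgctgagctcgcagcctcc

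The PKP1 window held a GC box from -14 to -9, counted from the start site. The CLDN4 window held AP-1 matches from -242 to -236 and from -161 to -155 and a GC box from -47 to -42. The CLDN3 window held 6 GC boxes, AP-2 matches from -10 to -2 and from 29 to 37, and an E-box from 37 to 42. The CLDN1 and CLDN11 windows held GC boxes and no other match. No window of the 5 held the hexamer or the palindrome. Of the 44 genes, 30 had a promoter in the table. GC boxes stood in 24 of these 30 (80%), beside 58.5% of 15812 protein-coding promoters, and in 15 of the 16 whose gene had a loop in either library, beside 9 of the 14 whose gene had none. The E-box stood in 10 of 30 (33.3%, beside 19.9%), the AP-2 motif in 14 (46.7%, beside 28.3%), the AP-1 motif in 4 (13.3%, beside 5.76%), the hexamer in 4 (13.3%, beside 11.2%) and the forkhead motif in 1 (3.33%, beside 2.62%). For genes with a loop (16) and without (14), the E-box counts were 5 and 5 and the AP-2 counts 7 and 7. The AP-1 and hexamer counts were each 2 and 2, and the forkhead counts 0 and 1. How GC boxes split by loops over all genes was not tested. The palindrome and the grainyhead motif were in none of the 30 and in 0.247% and 0.139% of all promoters. The median GC content was 65.8% in the 30 promoters and 62.7% in all, and its part in the counts of GC-rich motifs was not tested. A match is a string of letters, not a site.

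Loops were listed at 16 of the 44 genes in T0, at 21 in T30 and at 12 in both. Over all protein-coding genes the shares were 27.3% in T0, 32.2% in T30 and 17.9% in both. A loop in T30 and none in T0 was listed for CTNND1, CLDN5, CLDN6, CLDN9, CLDN23, F11R, PKP1, PKP2 and NECTIN4. The reverse held for EPCAM, OCLN, MARVELD2 and PKP4. Among all 19970 protein-coding genes the T0 list reached 5454, the T30 list 6428 and both lists 3583. Many genes outside the adhesion set were thus reached by a single list too. Whether either group is larger than expected from all genes was not tested. The excess in T30 depended on the gene limits. Of the 9 genes of the first group, 6 had loop ends beside the gene and none in it. With unwidened genes T0 had loops at 15 of the 44 and T30 at 13, where all genes gave 19.7% and 23.5%. These unwidened genes held 23 loops in T0 and 36 in T30. With bins at the gene's first or last base, loops were listed at 5 genes in T0 and 10 in T30. The shares of all genes by that rule were not computed, so these counts do not tell whether the adhesion genes differ from the rest. By distinct bins at the other end of the loops, called partners, 14 genes had more in T30 (21.4% of all genes did) and 8 had fewer (15.0% of all genes), 3 had equal numbers and 19 had no loop. The partners summed over genes to 35 in T0 and 58 in T30. In these sums a loop at several genes counted for each, and a loop with both ends at a gene counted with both its bins. T30 had 1.53 loops per T0 loop at these genes (exact 95% interval 0.961 to 2.47), beside 1.36 (1.31 to 1.40) over the whole lists. Without PKP1, left out after its values were seen, the summed change in partners was 13 in place of 23 and the ratio was 1.19 (0.722 to 1.96). Without CLDN11, likewise left out afterwards, the ratio was 1.84 (1.11 to 3.13).

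**Figure D1:**
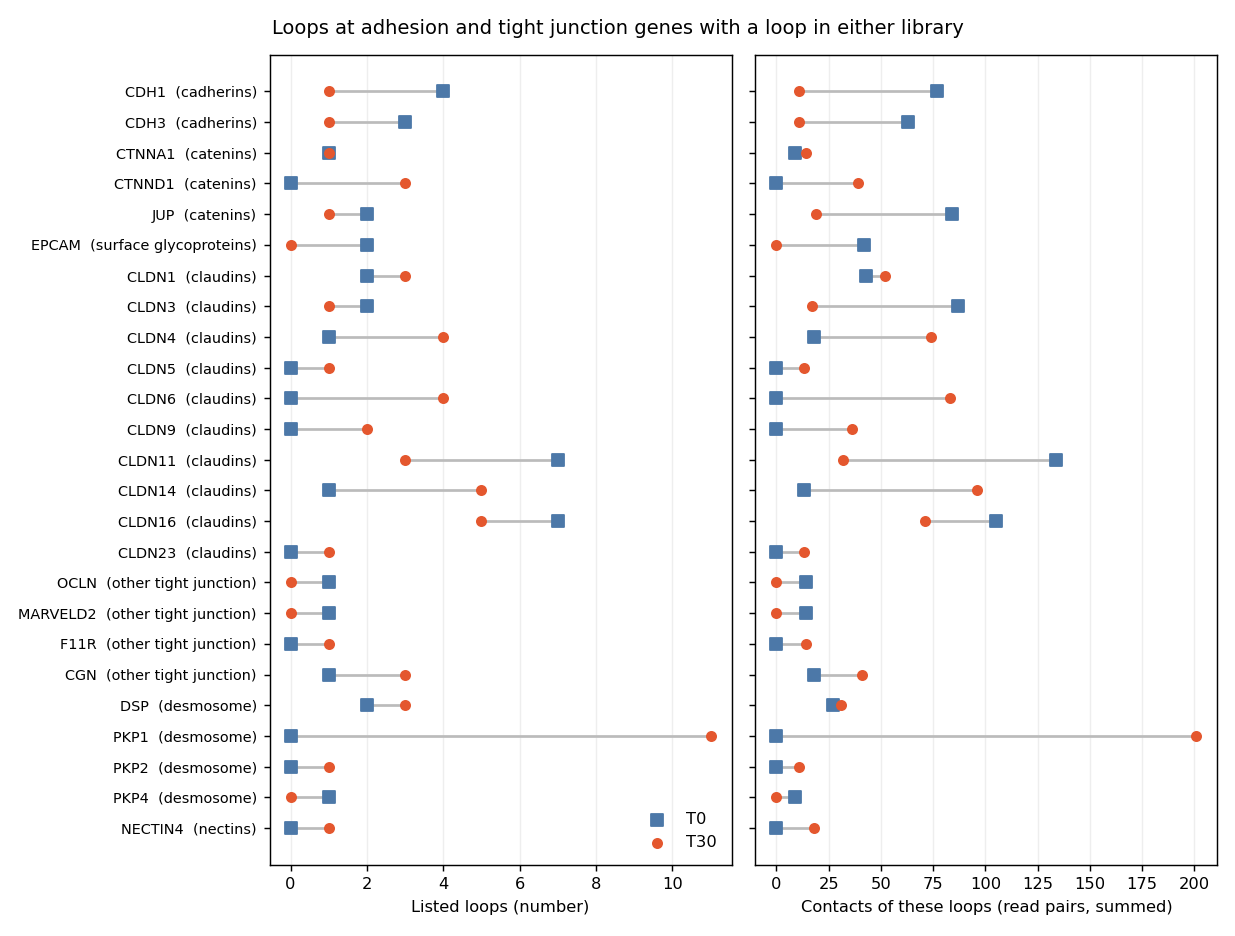
Number of listed loops (left) and their summed contacts in read pairs (right) for the 25 genes with a loop in either library, T0 as squares and T30 as circles. PKP1 stands farthest to the right in T30, with 11 loops and 201 contacts against 0 in T0, while CLDN11, CLDN16, CDH1 and CDH3 had more loops in T0.

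What the lists could hold differed between the libraries, and this touches every count of loops and partners above and below. The largest listed p-value was 0.000233 in T0 and 2.84e-05 in T30, and no T30 loop spanned less than 20 kb. The contacts of a listed loop, which are raw read pairs, were also fewer at equal span in T30. Among loops of 30 to 50 kb the median was 24 contacts in T0 and 15 in T30, and the 5th percentile was 16 and 11. Of the 49 T30 loops at the adhesion genes, 7 had as many contacts as the T0 median for their span or more, and 18 had fewer than its 5th percentile. Of the 30 T0 loops at a span that T30 lists, 29 reached the T30 median and none lay under its 5th percentile. So 18 of the T30 loops had contact numbers at which T0 seldom lists a loop of that span. The part of this in the T30 gains was not tested. The depth of either library is unknown.

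Spans at the adhesion genes were shorter in T30. The T0 median was 138 kb and the T30 median 60 kb, beside 190 and 80 kb over all loops, so the difference ran the same way in the lists as wholes. Spans of 20 to 50 kb made up 2 of 32 loops in T0 and 21 of 49 in T30 (6.25% and 42.9%, beside 5.09% and 31.5% of all loops). Spans of 200 to 500 kb made up 13 in T0 and 3 in T30. Claudins carried most of the long T0 loops, with a median span of 365 kb, but 7 of their 18 T0 loops lay at CLDN11, without which the median was 160 kb. The median contacts per loop were 16.5 in T0 and 14 in T30, beside 14 and 13 over all loops.

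**Figure D2:**
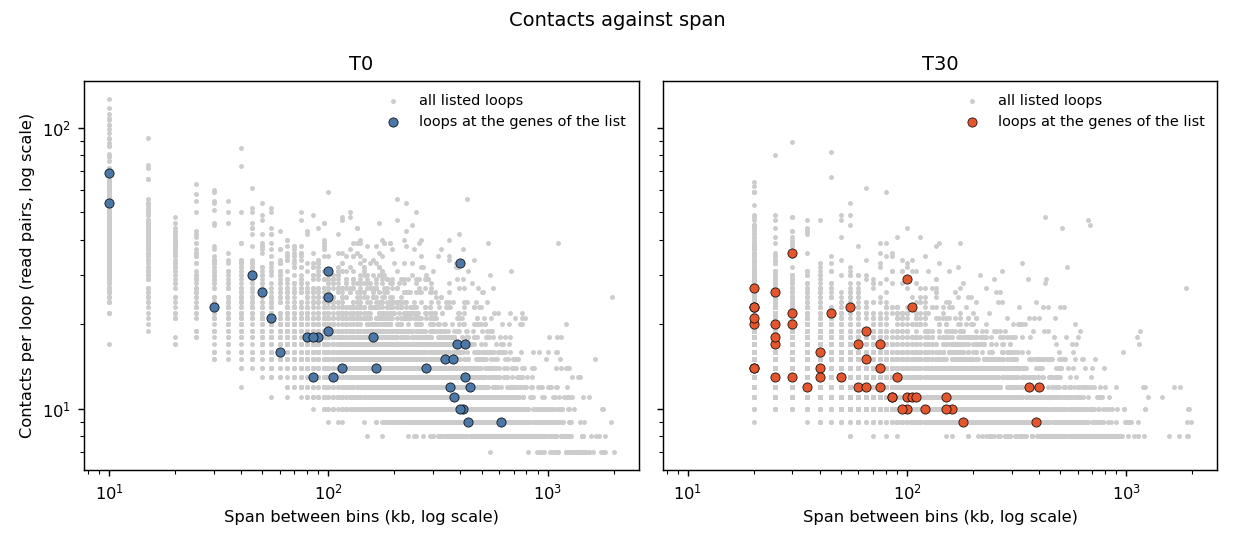
Contacts per loop (read pairs) against the span between the bins (kb), both on log scales, for all listed loops (grey) and for loops at the adhesion genes (coloured), T0 left and T30 right. Listed contacts fall with span in both lists, the T30 list starts at 20 kb, and 21 of its 49 coloured points lie from 20 to 50 kb, beside 2 of 32 in T0.

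Of the cadherins, CDH1 and CDH3 had fewer loops in T30, and CDH2, the N-cadherin of mesenchymal and neural cells, had none in either. CDH1, which encodes E-cadherin, lies on chromosome 16 from 68737292 to 68835537, and CDH3, which encodes P-cadherin, lies next to it from 68645310 to 68733771. CDH1 had 4 loops with 77 contacts in T0 and 1 with 11 in T30. Its partners numbered 5 and 1, and 255 of all genes (1.28%) had a change as low. From the bin at 68735001, which holds the end of CDH1 nearest to CDH3, a loop of 23 contacts ran to 68705001 in CDH3 and a loop of 21 contacts ran to 68790001 within CDH1. Another loop joined 68700001 in CDH3 to 68800001 in CDH1 with 19 contacts (exact Poisson 95% interval 11.4 to 29.7), and the last ran from the flank of CDH1 in TANGO6 at 68840001 over 280 kb with 14. In T30 the bin at 68735001 had no loop, and the CDH3 to CDH1 loop was listed between the identical bins with 11 contacts (5.49 to 19.7). All 4 T0 loops had at least the median contacts of T30 loops of their span. So had 29 of the 30 T0 adhesion gene loops compared, so this does not tell whether T30 would have listed them. Within 500 kb of CDH1, other loops numbered 9 in T0 and 12 in T30, so the count nearby did not go down with that of the gene. CDH3 shares 3 of these loops in T0 and 1 in T30, and by loops in bins at its first or last base CDH3 had no partner in either library.

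The catenins gave 3 loops in T0 and 5 in T30. CTNND1, p120-catenin, which holds cadherins at the membrane, had 0 loops in T0 and 3 in T30, all with an end in the gene. A loop of 13 contacts over 50 kb reached BTBD18, one of 12 contacts over 65 kb reached a bin with MED19 and TMX2, and one of 14 contacts over 20 kb joined a pair of bins within the gene. All 3 lay under the 5th percentile of T0 contacts for their span, and T0 listed no loop end within 1350 kb of the gene. With bins at the gene's first or last base CTNND1 had 1 partner more in T30, and with q under 0.01 it had 3 more, in place of 5. JUP, plakoglobin, which serves adherens junctions and desmosomes, had 2 loops in T0, of 30 and 54 contacts, both to bins in P3H4 at 41800001 on chromosome 17. It had 1 in T30, of 19 contacts, whose near end lay 9.61 kb outside the gene. That T30 loop paired with a T0 loop of 38 contacts between 41735001 and 41800001, which lies just outside the limit of 10 kb and is not among the 32. With genes widened by 25 kb JUP had 7 partners in T0 and 2 in T30. CTNNA1, alpha-catenin, which links the complex to actin, had 1 loop in each library, of 9 contacts over 435 kb in T0 and of 14 contacts over 20 kb in T30, in different places. CTNNB1, beta-catenin, the partner of E-cadherin and effector of Wnt signalling, had none. The nearest loop end was 615 kb away in T0 and 875 kb in T30.

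EPCAM, an adhesion glycoprotein of epithelial cells, had 2 loops in T0 and none in T30. Both T0 loops ended in the bin at 47385001 on chromosome 2, at the gene's end of higher coordinate, and ran to 47325001 and 47335001 with 16 and 26 contacts (exact Poisson intervals 9.15 to 26 and 17.0 to 38.1). Both were at or above the median of T30 loops of their span, as were 29 of the 30 T0 adhesion gene loops compared. This mark therefore does not tell whether T30 would have listed them. The T0 list held no other loop within 500 kb of EPCAM, and the nearest T30 loop end was 723 kb away, so no T30 loop lay within that distance. MUC1, a mucin of the apical surface, had no loop by the rule, although it lay in a region with 15 loops in T0 and 20 in T30 within 500 kb. Its nearest loop ends, at 12.1 and 10.8 kb, were just outside the 10 kb limit.

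Among the 18 claudins, which set what a tight junction lets through, loops were listed at 6 in T0 and at these and 4 more in T30. They held 18 loops in T0 and 23 in T30, a ratio of 1.28 (0.66 to 2.51). Partners were more in T30 for 7, fewer for 2 and equal for 1. Of the claudins, 10 are under 10 kb long, and loops were listed at 2 of these in T0 and 6 in T30 (20% and 60%), beside 23.2% and 28.7% of all protein-coding genes of that length. The 4 short claudins with a loop in T30 and none in T0 (CLDN5, CLDN6, CLDN9 and CLDN23) had no loop end in the gene, and with unwidened genes 2 of the 10, CLDN3 and CLDN4, had loops in either library. Without CLDN6 and CLDN9, whose loops lay in shared flanks, the claudin loops numbered 18 and 19.

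CLDN3 and CLDN4, neighbours on chromosome 7 and widely expressed in glandular epithelia, were joined to each other in T30. That loop ran from the bin at 73770001, which holds the CLDN3 start site printed above, to the bin at 73830001, which holds the CLDN4 start site, with 17 contacts (exact Poisson interval 9.90 to 27.2). It was not listed in T0. There CLDN3 was instead joined to the bin at 73855001 beside TMEM270 with 18 contacts, and CLDN4 to the bin at 73740001 beside ABHD11 with 18. The latter loop was listed in T30 with identical bins and 13 contacts. CLDN4 had 1 loop and 18 contacts in T0 and 4 loops and 74 contacts in T30, and all of these ended in its start site bin. The other new ones were of 23 and 21 contacts over 20 kb on either side of the gene. None of the 4 reached the T0 median for its span, and none was under its 5th percentile. CLDN3 had 2 loops with 87 contacts in T0, of which 69 came from a loop of 10 kb in its flank, a span not in the T30 list, and 1 loop in T30. The surroundings went the same way as CLDN4: other loops within 500 kb of it numbered 13 in T0 and 35 in T30.

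CLDN1, which is needed for the skin barrier, and CLDN16, a magnesium channel former of the kidney, overlap on chromosome 3 and share loops. CLDN1 had 2 loops in T0, both listed in T30 with identical bins, and 3 in T30. The loop from 190220001 to the CLDN1 start site bin at 190320001 had 31 contacts in T0 and 29 in T30, at the 97.2nd and 99.3rd percentile of loops of 100 to 200 kb in each list. The loop of 360 kb from P3H2 at 189960001 to that bin had 12 in both. CLDN16 had 7 loops and 105 contacts in T0 and 5 loops and 71 contacts in T30, with 4 partners in each. In T0, 4 of its loops ended at 190380001, and 3 of these came from P3H2 over 400 to 420 kb with 10 to 13 contacts. None of those 3 was listed in T30. Other loops within 500 kb of CLDN1 numbered 29 in T0 and 14 in T30.

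**Figure D3:**
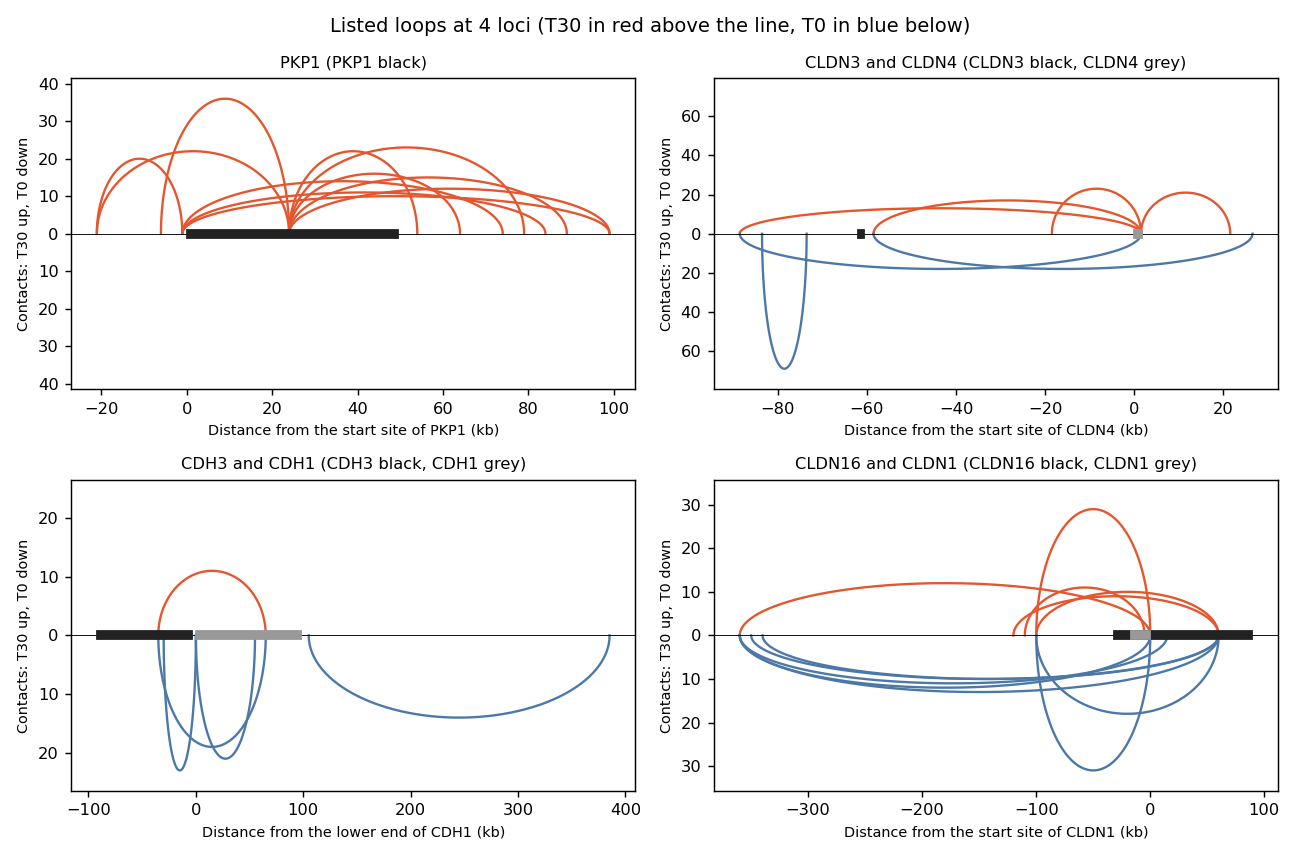
Listed loops at 4 loci drawn as arcs between bin centres, against the distance in kb from the point named on each axis. The height of an arc is its contacts, with T30 above the line in red and T0 below in blue, and bars are genes. PKP1 has 11 arcs in T30 and none in T0, CLDN4 has 4 and 1, CDH1 has 1 and 4, and the arc of 100 kb that ends at CLDN1 is about as high on both sides (29 and 31 contacts).

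CLDN11, a claudin of myelin and testis, had 7 loops with 134 contacts in T0 and 3 with 32 in T30, and its partners numbered 5 and 3. Of the T0 loops, 4 met in the bin at 170410001 on chromosome 3, which lies outside the gene, with its centre at -6.37 kb from the start site. The strongest, over 400 kb to 170810001, a bin with no gene, 49.9 kb from RPL22L1, had 33 contacts in T0, the 99.1st percentile for spans of 200 to 500 kb, and 12 in T30 between identical bins. At the bin of the CLDN11 start site there was no T0 loop and 1 T30 loop, of 11 contacts to SLC7A14. With bins that hold a gene end in place of the widened gene, CLDN11 had 0 partners in T0 and 1 in T30, which turns the direction. Other loops within 500 kb of CLDN11 were 27 and 29.

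CLDN14, a claudin of the inner ear and kidney, had 1 loop with 13 contacts in T0 and 5 with 96 in T30. The T30 loops included 1 of 26 contacts over 25 kb upstream of the gene on chromosome 21, from 36585001 to 36610001. Another, of 23 contacts from 36505001 to the same bin, stood at the 98th percentile of its span range. At 36610001, 3 of the T30 loops met. Of the 5 loops, 2 reached the T0 median for their span and 1 lay under its 5th percentile. Other loops within 500 kb were 13 in T0 and 11 in T30, so here the gene had more loops while its surroundings did not.

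CLDN6, a claudin of embryonic epithelia, had 0 loops in T0 and 4 with 83 contacts in T30, and CLDN9 beside it had 0 and 2, both shared with CLDN6. No end lay in either gene. The ends lay at 2995001, 3005001, 3025001 and 3045001 on chromosome 16, of which the bin at 2995001 overlaps GREP1, that at 3025001 THOC6 and BICDL2, and that at 3045001 MMP25. The strongest had 27 contacts over 20 kb. The zero of T0 was close to the limit of the rule, since the nearest T0 loop end was 11.8 kb from CLDN6, and with genes widened by 25 kb CLDN6 had 2 partners in T0 and 5 in T30. CLDN5, the claudin of blood vessels, and CLDN23 had 0 loops in T0 and 1 in T30, of 13 contacts each and with the near end in the flank. CLDN2, CLDN7, CLDN8, CLDN10, CLDN12, CLDN15, CLDN18 and CLDN19 had none in either library. For CLDN7, another claudin of luminal cells, the nearest end was 24.9 kb away in T0 and 125 kb in T30.

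Among the other tight junction genes, CGN, which encodes the plaque protein cingulin, had 1 loop in T0 and 3 in T30. The T0 loop, of 18 contacts, joined POGZ to the bin at 151520001 within the gene on chromosome 1. The T30 loops all ended in the bin at 151510001, which holds the CGN start site, with 12, 12 and 17 contacts, and 1 of them came from POGZ as well. All 3 were under the 5th percentile of T0 contacts for their span. With q under 0.01 CGN had no partner in either library. F11R, the junctional adhesion molecule JAM-A, had 0 and 1 loop, of 14 contacts to a bin with USF1. OCLN, which encodes occludin, and MARVELD2, tricellulin of the corners where cells meet, shared 1 loop of 14 contacts in T0, from RAD17 to OCLN over 115 kb, and had none in T30, where the nearest ends were 248 and 170 kb away. TJP1 and TJP3, the ZO scaffolds, and MARVELD3 had none.

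Of the desmosome genes, PKP1 had the largest change in partners of the 44 genes. PKP1 encodes plakophilin 1, a desmosomal plaque protein best known from stratified epithelia, and lies on chromosome 1 from 201283506 to 201332989. It had no loop in T0 and 11 loops with 201 contacts in T30, with 10 distinct partners. Over all genes, 58 (0.29%) had a change in partners as high. All 11 loops had an end in the gene body, 7 of them in the bin at 201305001, whose centre is 24 kb downstream of the start site, and 4 in the bin of the start site printed above. From the first bin a loop of 36 contacts (exact Poisson interval 25.2 to 49.8) ran back to 201275001 just upstream of the gene. Another, of 22 contacts, ran back to 201260001, 18.5 kb from the gene. Its remaining loops, of 12 to 23 contacts, ran to TNNT2, a cardiac troponin gene, to LAD1, a gene of the epithelial anchoring complex, and to bins between. From the start site bin, a loop of 20 contacts ran back to 201260001 too, and loops of 14, 11 and 10 contacts reached TNNT2 and LAD1. Of the 11, 2 reached the T0 median for their span and 2 lay under its 5th percentile. With q under 0.01 PKP1 had 8 partners in T30, and with bins that hold a gene end 4, against none in T0 under either. The nearest T0 loop end was 112 kb from PKP1. Other loops within 500 kb numbered 5 in T0 and 20 in T30, so the region had more listed loops too.

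DSP, desmoplakin, the link to keratin filaments, had 2 loops in T0 and 3 in T30, all towards RIOK1 on chromosome 6 over 105 to 165 kb and with 10 to 14 contacts. In T0 the near ends were at 7580001 in the gene and 7530001 upstream, and in T30 2 of the 3 were in the start site bin at 7540001. PKP2, plakophilin 2, had 0 and 1 loop, and PKP4 had 1 and 0, of 9 contacts over 610 kb. DSG2 and DSC2, the desmosomal cadherins of simple epithelia, had none, and the nearest T0 loop end was 3750 kb from DSG2 and 3310 kb from DSC2. PKP3 had none. The class as a whole had 3 loops in T0 and 15 in T30, of which 11 were those of PKP1. Of the nectins, which start cell contacts, NECTIN4 had 0 and 1 loop, of 18 contacts over 25 kb across the gene, which was not listed with q under 0.01, and NECTIN1 and NECTIN2 had none.

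In all, 19 of the 44 genes had no loop in either library. For 12 of these the nearest loop end was over 100 kb away in both libraries, and for the other 7 it was 10 to 50 kb away in at least 1.

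The loops with the most contacts lay at a few of these genes. In T0 they were the 10 kb loops beside CLDN3 (69 contacts, 53.7 to 87.3) and JUP (54, 40.6 to 70.5), the 400 kb loop beside CLDN11 (33), the CLDN1 loop (31) and the 45 kb loop at JUP (30). In T30 they were the PKP1 loop of 30 kb (36), the CLDN1 loop (29), a CLDN6 flank loop (27) and a CLDN14 loop (26), followed by 4 loops of 23 contacts, at PKP1, CLDN14 and CLDN4 and from flank to flank across CLDN9 and CLDN6. The CLDN1 loop alone was among the first 5 in both.

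Loops listed in both libraries allow a comparison of contacts. A loop under the threshold of the T30 list could not enter it and so could not be called lower. Likewise, a loop under the T0 threshold could not be called higher. A counterpart overlapping at both ends was listed for 9 of the 32 T0 loops (28.1%, exact 95% interval 13.7 to 46.7), beside 22.2% of all T0 loops, and for 8 of the 49 T30 loops (16.3%, 7.32 to 29.7), beside 16.4%. These intervals treat loops as independent although loops share ends. Paired one to one, 8 adhesion gene loops entered a set of 1389 pairs, 6 of the 8 with identical bins. For the pair at JUP, of 38 and 19 contacts, the T0 loop was not itself at the widened gene. Each pair was put to a binomial test, exact and two-sided, against the median T30 to T0 ratio of 0.667, with Benjamini-Hochberg adjustment over all 1389, and 0 of the 8 were called higher or lower in T30. Over all pairs 22 (1.58%) were called higher and 1 (0.072%) lower. The test compares 2 libraries, not 2 conditions. At an unadjusted p under 0.05 none of the 8 stood out either, and with no scaling 2 were lower at that level and 0 after adjustment.

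The 8 pairs spread on both sides of the median ratio. The loop of 13 and 17 contacts at CLDN14 was the highest, at 0.97 on the log2 scale relative to the median (interval -0.16 to 2.13, exact adjusted p = 0.838). The 400 kb loop at CLDN11, with 33 and 12 contacts, was the lowest, at -0.87 (-1.96 to 0.12, exact adjusted p = 0.76). The CDH3 to CDH1 loop was at -0.20 (-1.42 to 0.94), the CLDN4 loop at 0.12 (-1.04 to 1.23), and the CLDN1 loop of 31 and 29 contacts at 0.49 (-0.29 to 1.27). All 8 intervals include 0, so with these contact numbers none of the 8 pairs can be told from the median ratio. What size of difference could have been detected was not tested.

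**Figure D4:**
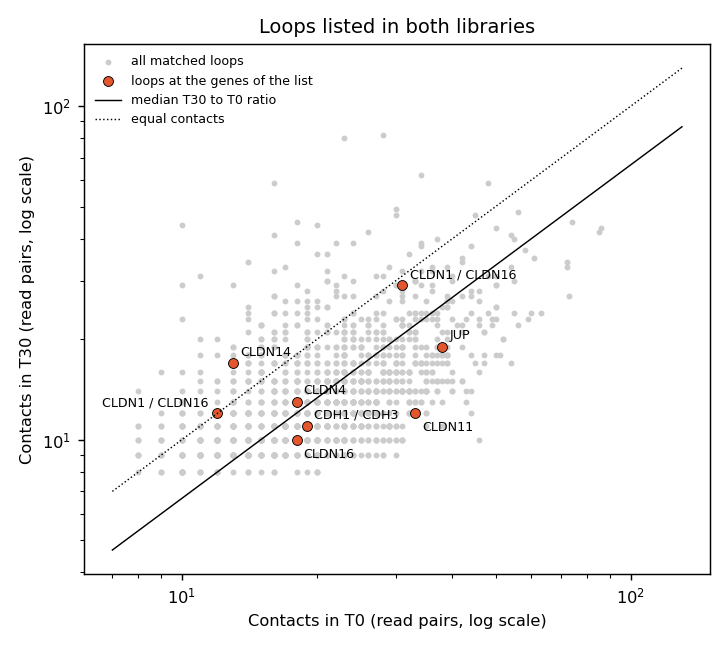
Contacts in T30 against contacts in T0 (read pairs, log scales) for 1389 loops listed in both libraries (grey) and the 8 at adhesion genes (red, named). The solid line is the median ratio of 0.667 and the dotted line equal contacts; CLDN14 lies above the solid line and CLDN11 below it, with no pair called.

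The other junction genes, a list of 41 that are not among the 44, held loops at 13 genes in T0, at 12 in T30 and at 10 in both. Over all protein-coding genes the shares were 27.3%, 32.2% and 17.9%. Partners were more in T30 for 8 (21.4% of all genes) and fewer for 3 (15.0% of all genes). The loops of the 41 numbered 33 and 37. PARD6B, a polarity protein, had 0 loops in T0 and 8 with 112 contacts in T30, of which 6 had ends beside the gene and none in it, and the nearest T0 end was 16.6 kb away. PRKCI, the atypical protein kinase C that acts with it, had 10 with 224 contacts in T0 and 0 in T30, and shared a T0 loop of 25 contacts with CLDN11. Of these 10, 9 had ends beside PRKCI and none in it, and the nearest T30 end was 14 kb away, so this contrast too lay close to the limit of the rule. EVPL, envoplakin, had 2 and 6 loops, CGNL1, a relative of cingulin, 3 and 5, and ESAM, an endothelial adhesion molecule, 3 and 5. The desmosomal cadherin genes DSG1, DSG3, DSG4, DSC1 and DSC3 had none, like DSG2 and DSC2 in the same cluster.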

How the data were processed

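PR HiChIP was analysed in T47D, in the library labelled T0 and that labelled T30. Of the 23 samples, no others were used here. The labels give 1 of them conflicting doses. The deposited lists hold loops at q under 0.05 with near contacts merged, per the labels' file descriptions. The contacts of a loop are raw counts of read pairs joining its bins, each of 5 kb, as deposited. Its p-value and q-value are bias-corrected, per the file headers. The authors' fraction for each merged cluster and its summed contacts entered no result. Bowtie, hg38 and GRCh38 are named in the submitters' processing notes, with no role or version. How loops were called, whether replicates were pooled and how deep the libraries were is not given in the sources used here. Other deposited columns, which hold positions, are on hg38.

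Gene bodies and start sites came from RefSeq tables of GRCh38.p14. All 44 genes matched by symbol, and 30 had a promoter there. A gene's partners are the distinct bins at the other end of its loops. When both ends of a loop lay at the widened gene, both its bins counted. A loop at several genes counted once in a total of loops, but in a sum of partners it counted for each gene. Loops were shared when at each end the merged clusters overlapped (1 bp or more), paired one to one by nearest bins, and contacts were compared by exact binomial tests. Contact intervals are exact Poisson and shares exact binomial, at 95%. Read pairs may be copies of 1 molecule.

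The members, lists and tests were chosen with earlier results of these data known. Genes given in full were those with at least 4 loops in a library or a change of at least 3 partners, and CDH1, EPCAM, CTNNB1 and OCLN, with the 5 loops of most contacts per library. Alternatives were other gene limits, q under 0.01, at least 10 contacts, spans of at least 20 kb, lists of equal length, other overlaps and other scalings. Leaving out PKP1 or CLDN11 and equal p-values were added after the data were seen. The test of contacts was tried on simulated counts. Pairing by identical bins and the overlap of bins with an interval were tried on altered or made-up loops. The overlap of merged clusters, the partner counts and the motif search were not tried in this way. The tools were scipy 1.17.1, matplotlib 3.10.9, pandas 2.3.3 and numpy 2.4.6 under Python 3.11.15.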

Additional observations from a re-analysis of the deposited data

How the results depend on the processing

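When a loop had to end in a bin at the gene's first or last base, loops were listed at 5 genes in T0 and 10 in T30, with 8 and 19 loops, a T0 median span of 72.5 kb and 19.5 contacts per T0 loop, and other junction genes had 5 and 5. No share over all genes was computed for that rule. With unwidened genes 13 had a loop in T30. With q under 0.01 the genes had 29 loops in T30. With p-values at or below the largest of the T30 list and spans of at least 20 kb, added once the data had been seen, they had 21 loops in T0. The summed change in partners, 23 as reported, was positive under every setting run but ranged from 13 (gene ends, or without PKP1) through 14 (q under 0.01, or lists of equal length) and 15 (unwidened) to 35 (equal p-values). With genes widened by 25 kb T0 had 48 loops. The shared part of the T0 loops was 18.8% with identical bins, beside 8.59% of all T0 loops. That of the T30 loops was 26.5% with bins within 10 kb, beside 27.4% of all T30 loops. With bins within 10 kb the T0 share was 28.1%, beside 36.4% of all T0 loops. Whether the T0 share lay over or under that of all loops thus changed with the overlap rule. Changes at single genes are small numbers and moved with the gene limits and the q threshold. With gene ends PKP1 went from 10 to 4, CTNND1 from 5 to 1, CLDN14 from 3 to 1 and CDH3 from -3 to 0. With q under 0.01 CGN went from 3 to 0 and NECTIN4 from 2 to 0. CLDN11 went from -2 to 1 with gene ends, CLDN6 from 4 to 0 with unwidened genes and with gene ends, and JUP from 0 to -5 with genes widened by 25 kb. Narrower genes have fewer bins, and the causes of these shifts were not tested. No paired analysis was possible because each condition was 1 library. The unknown depth limits what a missing loop can mean, since a loop under the list's threshold is not told from one that is absent.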
